A study of Homo sapiens with 4 samples.

Results

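The 10 genes described here encode the cell's sensors of double-stranded RNA and the 2'-5'-oligoadenylate synthetase (OAS) family: DDX58, IFIH1, DHX58, TLR3, EIF2AK2, ADAR, OAS1, OAS2, OAS3 and OASL. They were taken by symbol, as a list of related functions, from the 33538 genes of the count tables, and all 10 were found with at least 43 UMIs in every library. A UMI (unique molecular identifier) marks 1 captured RNA molecule. The cells were HCEC 1CT, a human colonic epithelial line kept growing by TERT and CDK4, transduced with a hairpin against APC (shAPC) or with a scrambled hairpin (shScr), selected with puromycin and harvested 3 or 7 days after transduction. Single-cell RNA sequencing gave 4 libraries, 1 for each hairpin and day, so no test between groups was possible and no p-value is given. The values therefore describe 4 libraries of 1 line with 1 hairpin against APC, and a culture of untransduced cells was not analysed here. Because a hairpin is itself double-stranded RNA, the question was how these genes stood in shAPC cells against cells that carry another hairpin.

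Double-stranded RNA in the cytosol is a common sign of viral infection. RIG-I (the product of DDX58) and MDA5 (the product of IFIH1) bind such RNA and signal through the adaptor MAVS to the kinase TBK1 and the factor IRF3, which switch on interferon beta, and TLR3 does the same from the endosome through the adaptor TICAM1. Secreted interferon then acts through its receptor on a response element in many promoters, so that most of the sensors are themselves interferon-stimulated genes. OAS1, OAS2 and OAS3 turn double-stranded RNA into the second messenger 2-5A, while the kinase PKR (EIF2AK2) halts translation through eIF2 and ADAR edits such RNA so that it is less readily sensed.

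The promoters of the members carry the letters of that element more often than promoters in general. RefSeq promoter sequences (build GRCh38.p14, 250 bases before to 50 after a gene's start) were at hand for 7 of the 10 members, DDX58, IFIH1, TLR3, EIF2AK2, ADAR, OAS1 and OAS3. They were searched on both strands for GAAANNGAAA, the core of the interferon-stimulated response element, and for GAAANGAAA, which has 1 base less between its repeats. Of 35116 promoters, 3.57% held the first and 3.12% the second, and 6.40% held either. At least 1 match lay in the promoters of 6 members, against 7.83% of all 27305 genes with an entry, and IFIH1 held 3 matches of the first motif. The letters were not found in the window of any of the 3 listed starts of ADAR. The windows below show 1 match of each of the 6 genes, 5′ to 3′ on the strand of the gene, with the match in capitals. In TLR3 the motif lies on the opposite strand and reads in reverse.
DDX58, chr9:32526379-32526411, minus strand: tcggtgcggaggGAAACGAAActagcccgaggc
IFIH1, chr2:162318684-162318717, minus strand: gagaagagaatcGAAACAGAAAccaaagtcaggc
TLR3, chr4:186069140-186069173, plus strand: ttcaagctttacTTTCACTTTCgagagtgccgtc
EIF2AK2, chr2:37156965-37156998, minus strand: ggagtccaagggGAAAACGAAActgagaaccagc
OAS1, chr12:112906933-112906965, plus strand: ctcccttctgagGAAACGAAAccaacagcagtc
OAS3, chr12:112938450-112938483, plus strand: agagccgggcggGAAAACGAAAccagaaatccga
A match of letters is a description and not a measured binding site. Among the members with a match, EIF2AK2 and TLR3 had day 3 log2 ratios of 0.84 and 0.92, and IFIH1 and OAS1 of 2.49 and 2.64 (values explained with the genes).

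Before the values, the libraries need a short description. A barcode was kept if it had 200 genes and 500 UMIs or more and if under 5% of its UMIs were mitochondrial, which left 788 to 2600 cells and 28451455 to 39797418 UMIs per library. Depth per cell differed widely, with a median of 35109 UMIs in shScr and 49685.5 in shAPC on day 3, and of 1330 and 21029.5 on day 7. Both day 3 libraries had 19 kept barcode sequences in common, and the other pairs 1 to 7. APC, the targeted gene, had 16.1 CPM (UMIs of the gene scaled to the total UMIs of the kept cells, as counts per 1000000) in shScr and 5.52 in shAPC on day 3, and 19.1 and 6.61 on day 7, so it was lower in both shAPC libraries. Of 10 markers of colonic epithelium, 3 to 5 had a UMI in a given library, with a sum of 14.8 to 26.6 CPM. KRT8 and KRT18 were present, whereas KRT20, CDX2 and MUC2 were at 0 in all 4 libraries and EPCAM had at most 2 UMIs. A list of 6 markers of fibroblasts and mesenchyme, among them VIM, summed to 8567 to 11124 CPM in each library, so the epithelial label is not borne out by these markers. That sum came mostly from VIM and FN1. On day 7 the collagen genes COL1A2 (492 CPM in shScr and 1118 in shAPC) and COL3A1 (34.9 and 87.6) were at least 2-fold higher in shAPC. The median log2(CPM + 1) ratio of the 6 markers was 0.35. With total UMIs 5 of the 6 were higher, among them VIM at 4010 CPM in shScr and 4018 in shAPC. With TMM factors 4 were higher, and with DESeq2 size factors 3. The endothelial markers PECAM1, CDH5 and VWF had 1 to 5 UMIs in all in a library. The immune marker PTPRC had at most 1 UMI and CD3E was at 0, while CD68 stood at 17.4 to 29.6 CPM. Their part in the results was not tested. Cell Ranger 3.0.2 wrote both shScr count tables and 3.0.0 both shAPC tables, so the software version and the hairpin cannot be told apart.

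On day 3 all 10 genes were higher in shAPC than in shScr, and on day 7 most were lower in shAPC. The median log2(CPM + 1) ratio of all genes of at least 20 CPM also lay above 0 on day 3 (0.28) and below 0 on day 7 (-0.10). The share of all genes in each direction was not counted. In all, 7 of the 10 (DDX58, IFIH1, DHX58, OAS1, OAS2, OAS3 and OASL) were at least 2-fold higher on day 3 on the log2(CPM + 1) scale. Of all 5175 genes with at least 20 CPM in either day 3 library, 3.86% were at least 2-fold higher and 0.425% at least 2-fold lower. In this background set 8 of the members were included, and 6 of these were at least 2-fold higher. Those 6 reached 20 CPM in shAPC only, whereas EIF2AK2 and ADAR passed in both libraries and were under 2-fold. Entry to the set thus depended on the shAPC level, so the 6 of 8 cannot be weighed against the 3.86%. The median log2 ratio of the 10 members was 1.90 on that scale, and that of the 5175 genes 0.28. The split of the background depended on the scaling: 90.1% of the genes past 2-fold were higher with total UMIs and 55.3% with TMM factors, which moved the median of all genes to -0.13. Relative to the median of all genes, that of the members was 1.62 with total UMIs and 1.68 with TMM factors.

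**Figure D1:**
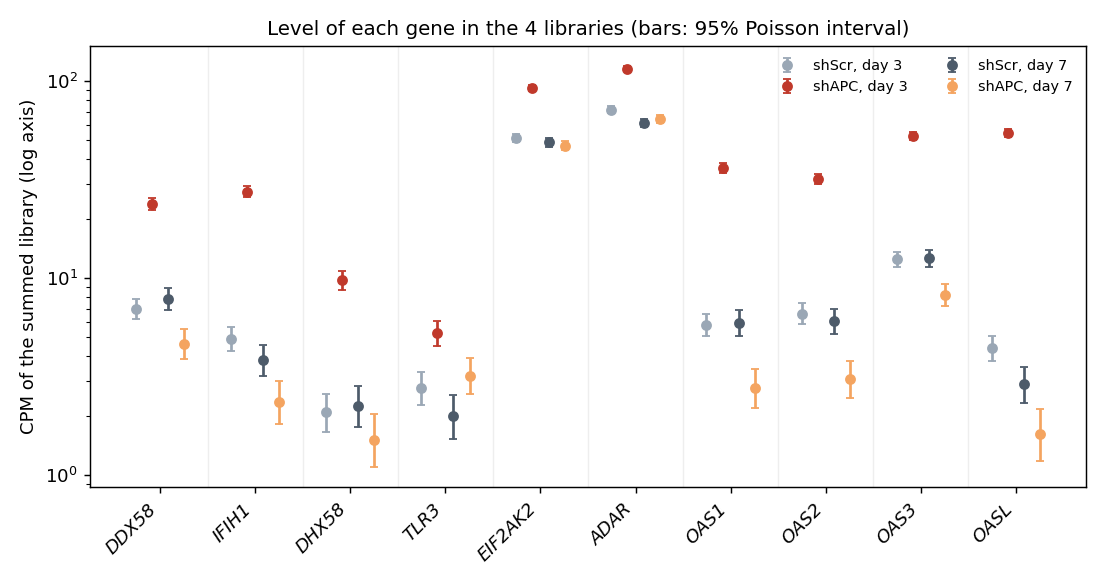
The level of each of the 10 genes is plotted in CPM of the summed library on a log axis, for shScr and shAPC on day 3 and day 7, with bars for the exact Poisson 95% interval. The shAPC day 3 library was highest for each of the 10 genes, and its interval touched no other library's interval.

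The 3 RIG-I-like receptors moved alike. DDX58 (RIG-I, chr9:32455302-32526208, minus strand, GRCh38) stood at 6.99 CPM (95% interval 6.19 to 7.86) in shScr and 23.9 (22.3 to 25.5) in shAPC on day 3, and at 7.84 (6.89 to 8.89) and 4.64 (3.88 to 5.50) on day 7. The first and the third of these, both from shScr, did not differ beyond their intervals, and the shAPC libraries lay above them on day 3 and below them on day 7. The log2 ratio of shAPC to shScr was 1.77 (1.58 to 1.97) on day 3 and -0.76 (-1.07 to -0.45) on day 7. These and all other intervals are exact and cover counting error only, since 1 library per group gives no spread between cultures.

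IFIH1 (MDA5, chr2:162267074-162318684, minus strand), which binds long duplexes, went from 4.90 CPM in shScr to 27.4 in shAPC on day 3. On day 7 it stood at 3.84 CPM in shScr and 2.35 in shAPC. That is a 5.60-fold difference on day 3 (4.80 to 6.57) and a log2 ratio of -0.71 (-1.16 to -0.26) on day 7. DHX58 (LGP2, chr17:42101404-42112714, minus strand) has no signalling domain of its own and modulates RIG-I and MDA5. Its levels were 2.09 CPM in shScr and 9.73 in shAPC on day 3, and 2.24 and 1.51 on day 7, from 43 to 340 UMIs per library. The day 3 log2 ratio was 2.22 (1.87 to 2.59), and on day 7 it was -0.57 with an interval that ended just below 0. Cell weighting changed the day 3 call: DHX58 was at 0.77 by the mean over cells of CPM and at 0.83 with cells thinned to 2000 UMIs, both under 2-fold. Together the 3 receptors summed to 14.0 CPM in shScr and 61.0 in shAPC on day 3, and to 13.9 and 8.51 on day 7.

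TLR3 (chr4:186068911-186088073, plus strand), the endosomal sensor, was the one member that was higher in shAPC on both days with intervals clear of 0. Its levels were 2.76 CPM in shScr and 5.24 in shAPC on day 3, and 1.99 and 3.20 on day 7. Between 62 and 183 UMIs per library lie behind these values. The log2 ratio was 0.92 (0.57 to 1.28) on day 3 and 0.69 (0.21 to 1.18) on day 7, so the ratios of both days overlapped within their intervals.

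EIF2AK2 and ADAR do not signal through MAVS or TICAM1: the first acts on translation and the second on the RNA itself. EIF2AK2 (PKR, chr2:37099210-37157522, minus strand) stood at 51.3 CPM in shScr and 91.8 in shAPC on day 3, and at 49.0 and 47.0 on day 7. Only shAPC day 3 stood apart, with a log2 ratio of 0.84 (0.76 to 0.92), and the day 7 ratio of -0.06 (-0.16 to 0.05) could not be told from 0. ADAR (chr1:154581695-154628013, minus strand) was at 71.7 and 116 CPM on day 3 and at 61.3 and 64.4 CPM on day 7, in the order shScr, shAPC. Its log2 ratio was 0.69 (0.62 to 0.76) on day 3 and 0.07 (-0.02 to 0.16) on day 7. Neither gene was 2-fold higher. With TMM factors the day 3 log2 ratios of the 3 genes under 2-fold were still above 0, at 0.46 for EIF2AK2, 0.31 for ADAR and 0.54 for TLR3. With the median of all genes taken off, the day 3 log2(CPM + 1) ratios were 0.55 for EIF2AK2 and 0.41 for ADAR.

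Each of the 4 OAS genes was at least 2-fold higher in shAPC on day 3. OAS1, OAS3 and OAS2 lie in that order within chr12:112905856-113011723 on the plus strand, and OASL lies apart on the same chromosome at chr12:121017763-121039246 on the minus strand. Summed, the 4 genes gave 29.2 CPM in shScr and 175 in shAPC on day 3, and 27.4 and 15.7 on day 7. OAS1 stood at 5.80 CPM in shScr and 36.2 in shAPC on day 3, and at 5.92 and 2.78 on day 7. Its shScr levels did not differ beyond their intervals, and its log2 ratios were 2.64 (2.44 to 2.85) and -1.09 (-1.49 to -0.71). OAS2, which makes 2-5A as a dimer, was at 6.58 and 31.7 CPM on day 3 and at 6.05 and 3.06 on day 7. OAS3, which responds best to long duplexes, was at 12.5 and 52.6 CPM on day 3 and at 12.6 and 8.22 on day 7. The log2 ratios of OAS2 were 2.27 and -0.98, and those of OAS3 2.08 and -0.61, with all 4 intervals clear of 0.

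OASL, which lacks synthetase activity and enhances RIG-I signalling, had the largest ratio of the 10 genes on day 3. It went from 4.40 CPM in shScr to 54.5 in shAPC on day 3, and it was at 2.88 and 1.62 on day 7. The day 3 fold was 12.4 (10.6 to 14.6) and the day 7 log2 ratio -0.83 (-1.38 to -0.31). Its UMIs came from few cells: 259 of the 1905 in shAPC day 3 were in 1 cell, and the 10 highest cells held 59.4% of them. In shScr day 3 the 10 highest cells held 62.9% of 175 UMIs. For the other 9 genes this share lay between 5.52% (ADAR) and 33.3% (IFIH1) in shAPC day 3, so an interval from counting error is least adequate for OASL.

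**Figure D2:**
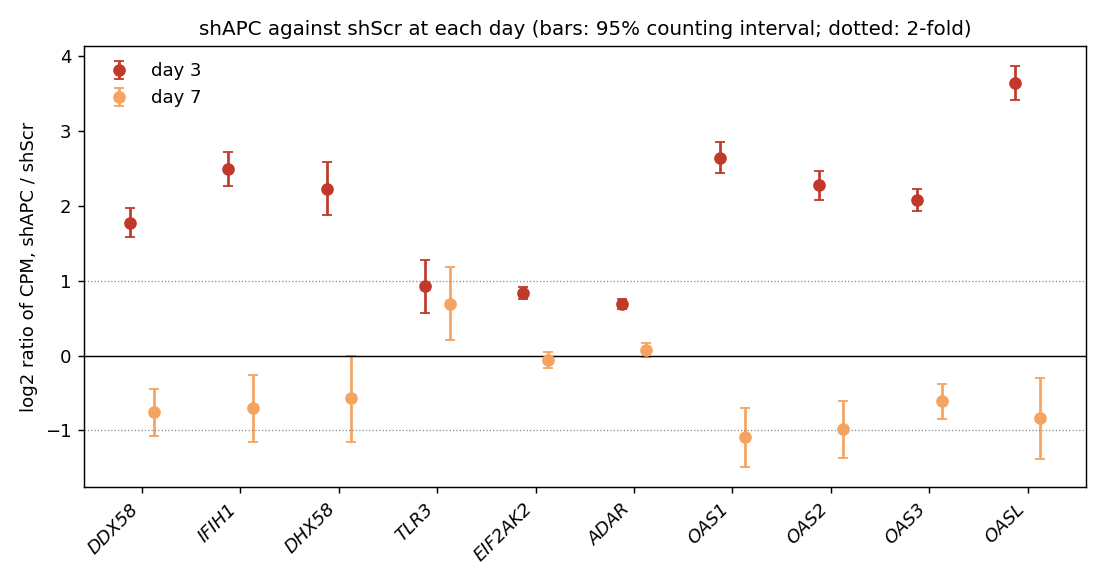
The log2 ratio of CPM in shAPC to shScr is plotted for each gene on day 3 and day 7, with bars for the exact 95% counting interval and dotted lines at 2-fold. On day 3 all 10 ratios lie between 0.69 and 3.63, and on day 7 only TLR3 and ADAR lie above 0, ADAR with an interval that includes 0.

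On day 7 no member was 2-fold different on the log2(CPM + 1) scale, which narrows the ratios of genes at a few CPM. On CPM itself OAS1 was past 2-fold lower, with a log2 ratio of -1.09. Of 4573 genes with at least 20 CPM in either day 7 library, 0.787% were at least 2-fold higher and 1.77% at least 2-fold lower. In shAPC 8 members were lower and 2 higher, with 7 intervals below 0 and 1 above. Over all genes, the share that was lower or had an interval clear of 0 was not counted. Only EIF2AK2 and ADAR passed 20 CPM in either day 7 library. The median log2 ratio was -0.54 for the members and -0.10 for all genes. Genes past 2-fold were higher in 30.8% of cases with total UMIs and in 47.1% with totals that omit the mitochondrial and the ribosomal protein genes.

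Over time, the members were nearly level in shScr and far lower on day 7 in shAPC. In shScr no member was 2-fold different between the days on the log2(CPM + 1) scale. Of 4556 genes with at least 20 CPM in either shScr library, 0.329% were at least 2-fold higher and 0.79% lower on day 7. Among the members, only EIF2AK2 and ADAR were in that set. The median of the members was -0.09, and the intervals of 4 of them (IFIH1, TLR3, ADAR and OASL) lay below 0, with OASL lowest at -0.61 (-0.99 to -0.23). The median of all genes was 0.05, and how many of their intervals lay below 0 was not counted. In shAPC 7 members were at least 2-fold lower on day 7 than on day 3. They were those that were 2-fold higher in shAPC on day 3, and both comparisons use the same shAPC day 3 library. Of the 5176 genes with at least 20 CPM in either shAPC library, 5.78% were at least 2-fold lower and 0.058% higher. This set included 8 members, of which 6 were at least 2-fold lower. Those 6 reached 20 CPM on day 3 only, so their number cannot be weighed against the 5.78%. Log2 ratios of day 7 to day 3 in shAPC ran from -0.71 for TLR3 to -5.08 for OASL, with a median of -2.34 for the members on the log2(CPM + 1) scale and of -0.34 for all genes. With TMM factors 18.2% instead of 0.993% of the genes past 2-fold were higher, and the median of the members minus that of all genes was then -2.03.

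The share of cells with a UMI followed the levels once cells were compared at equal depth. Each cell was thinned at random to 2000 UMIs, and shallower cells were left out, 217 in shScr and 115 in shAPC on day 3. At this depth 47.5% of 673 shAPC day 3 cells had a UMI of any member (43.7% to 51.4%), against 27.0% of 899 shScr cells (24.2% to 30.1%). OAS1 was found in 6.84% of shAPC cells against 1.33% of shScr cells, OAS2 in 5.94% against 1.11%, OAS3 in 8.77% against 2.45% and OASL in 5.50% against 0.890%. DDX58 had 4.31% against 1.67%, EIF2AK2 15.2% against 9.79% and ADAR 19.3% against 13.3%, and the intervals of these 7 genes did not overlap between the hairpins. Those of IFIH1 (2.38% against 0.667%), DHX58 (1.19% against 0.667%) and TLR3 (0.594% against 0.222%) did. How often such intervals separate over all genes at this depth was not computed, so the 7 of 10 has no background to stand beside.

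On day 7, at 2000 UMIs per cell and with 1402 shScr and 391 shAPC cells left out as too shallow, 24.6% of shAPC cells and 27.0% of shScr cells had a UMI of any member. The intervals overlapped for each of the 10 genes. Without thinning the day 7 shares were 65.8% in shAPC and 44.4% in shScr, the opposite order, with median depths of 21029.5 and 1330 UMIs. No cell type that should lack these genes was at hand in this culture, so the share that free RNA would give is not known.

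**Figure D3:**
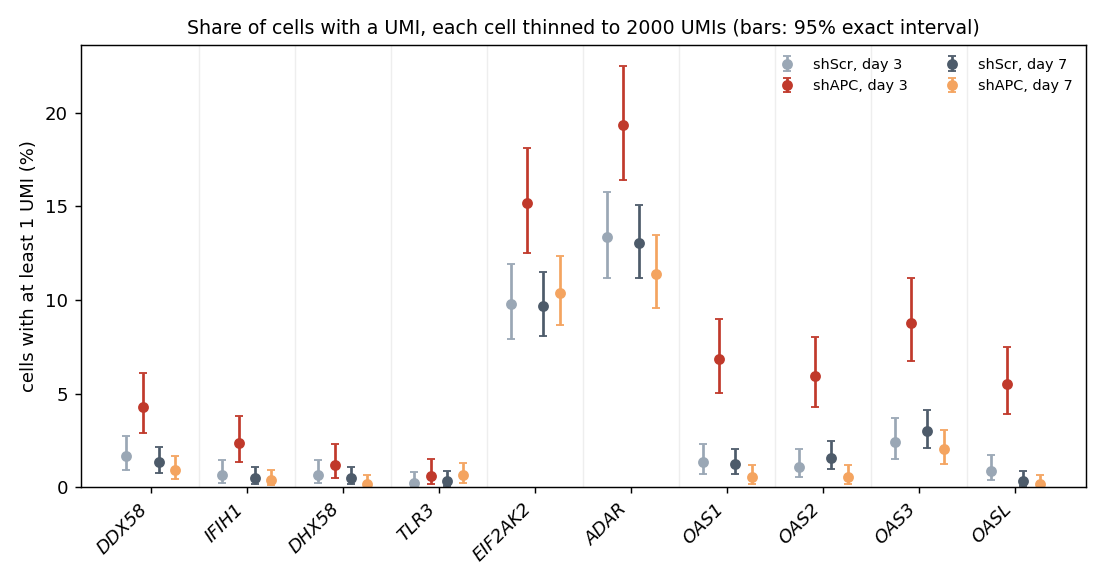
The percentage of cells with at least 1 UMI of each gene is plotted for the 4 libraries after thinning every cell to 2000 UMIs, with bars for the exact binomial 95% interval. The shAPC day 3 points lie highest for each gene except TLR3, which was found in 0.594% of those cells and in 0.644% of shAPC day 7 cells.

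The number of members detected per cell was also higher in shAPC day 3. Whether members occurred together beyond what the shares of single genes give was not tested. As too shallow for 5000 UMIs, 307 shScr and 172 shAPC cells were left out on day 3, and 1564 and 484 on day 7. At 5000 UMIs per cell, 76.9% of 616 shAPC day 3 cells had at least 1 of the 10 genes and 21.8% had at least 3. In shScr day 3 these shares were 53.2% and 4.33% of 809 cells, in shScr day 7 48.6% and 3.38% of 1036 cells, and in shAPC day 7 48.6% and 0.704% of 994 cells. The mean number of members per cell was 1.59 in shAPC day 3 and 0.602 to 0.752 in the other libraries.

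**Figure D4:**
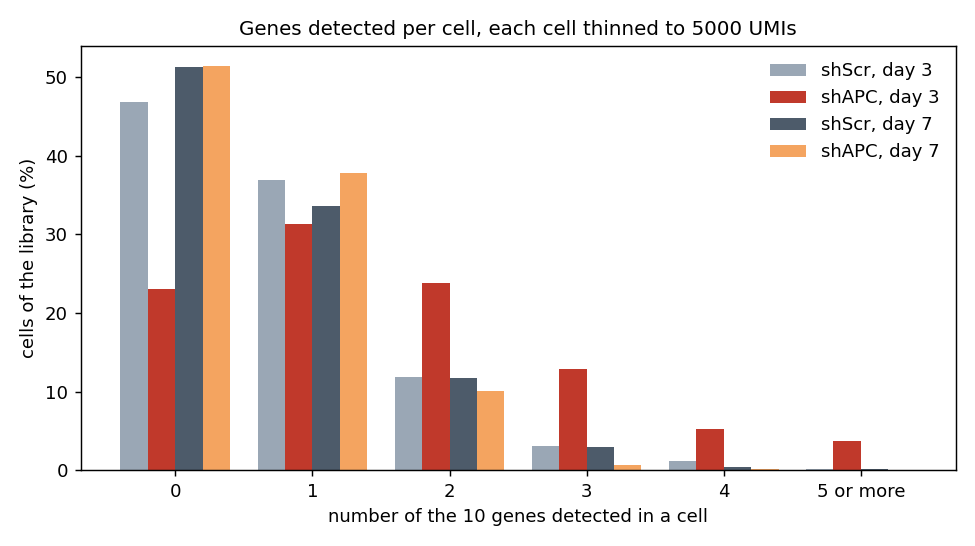
Bars give the percentage of cells in which 0, 1, 2, 3, 4, or 5 and more of the 10 genes were detected, with every cell thinned to 5000 UMIs. In shAPC day 3 only 23.1% of cells had none, against 46.8% to 51.4% of cells in the other libraries.

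Interferon beta stands downstream of the sensors and upstream of their own induction, and its gene IFNB1 was read from very few cells. In shAPC day 3, 829 UMIs of IFNB1 came from 16 of 788 cells, 585 of them from 1 cell. The gene had 0 UMIs in shScr day 3, 11 in shScr day 7 and 1 in shAPC day 7. The 16 shAPC day 3 cells had 440 CPM of OASL against 37.1 in the 772 other cells, 165 against 21.2 of IFIH1, 138 against 48.8 of OAS3 and 85.6 against 33.9 of OAS1. These are pooled levels: 9 of the 16 cells had an OASL UMI, 13 an IFIH1 UMI and 16 an OAS3 UMI. DDX58 was at 84.3 against 21.1 CPM and DHX58 at 37.8 against 8.46, so all 3 RIG-I-like receptors were higher in the cells with an IFNB1 UMI. Without thinning, ADAR (117 against 116 CPM), OAS2 (30.5 against 31.8) and TLR3 (5.98 against 5.20) did not differ beyond their counting intervals, and EIF2AK2 was at 112 against 90.9. The median depth of the cells with an IFNB1 UMI was 86930.5 UMIs and that of the others 48938.5. At 5000 UMIs per cell 3 cells kept an IFNB1 UMI, and the log2 ratio of all members together was 3.53 (3.16 to 3.87), against 1.55 (1.48 to 1.63) without thinning. OASL alone gave 40 of the 70 member UMIs in those 3 cells. In these 3 cells OAS2 had only 3 UMIs, in 2 of the cells, with a log2 ratio of 2.49 (0.19 to 4.08). DHX58 and TLR3 had no UMI in them. The cells within a library are not replicates, and these intervals cover counting error only.

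The day 3 difference was also present in cells without IFNB1 UMIs. No shScr day 3 cell had an IFNB1 UMI, so cells with one were left out of shAPC only. OASL was then at 37.1 CPM in shAPC and 4.40 in shScr, IFIH1 at 21.2 and 4.90 and OAS1 at 33.9 and 5.80, and 7 members were still at least 2-fold higher. Cells with a UMI of ATF3, a stress-induced factor, made up 16.5% of shAPC day 3 cells and 3.14% of shScr day 3 cells, and they had higher levels of most members. At 2000 UMIs per cell these shares were 3.57% and 0.222%. The shAPC day 3 cells with an ATF3 UMI had a median depth of 62344 UMIs and the others 47221.5. Within shAPC day 3 they had 145 CPM of OASL against 24.9 in the other cells, 62.8 against 15.9 of IFIH1 and 49.9 against 15.4 of DDX58, but 28.2 against 32.9 of OAS2. At 5000 UMIs per cell 39 cells kept an ATF3 UMI, and OASL, IFIH1 and DDX58 stayed higher in them. The order for OAS2 was then reversed, at 51.3 against 35.4 CPM, with a log2 ratio of 0.54 (-0.57 to 1.47). Without the cells with an ATF3 UMI 7 members were again at least 2-fold higher, and the median of the 10 was 1.38 in place of 1.90. Leaving out the barcodes that libraries share moved that median to 1.85.

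**Figure D5:**
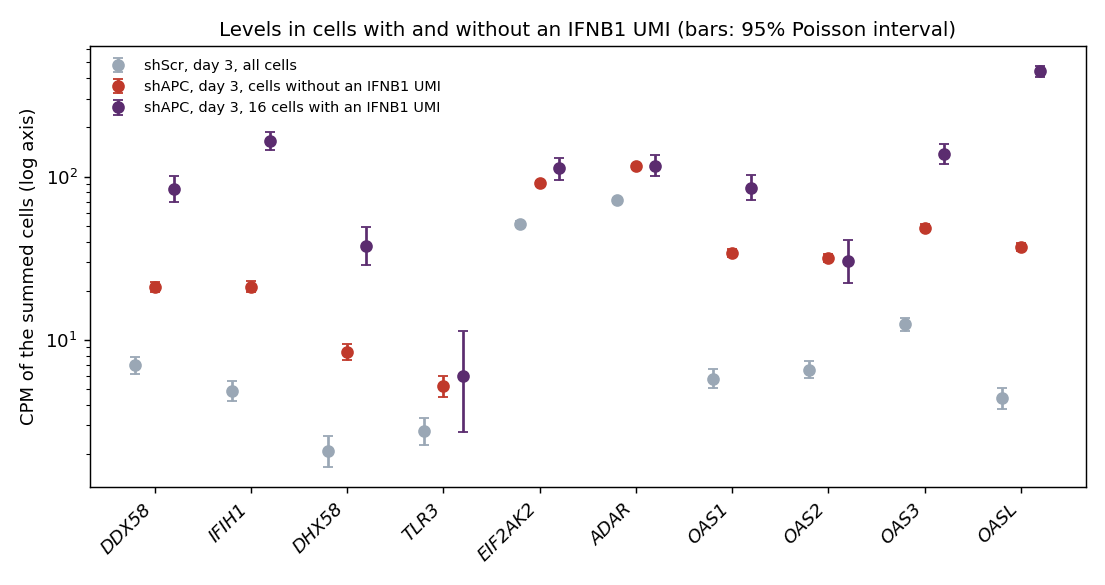
Levels in CPM on a log axis are plotted for all shScr day 3 cells, for shAPC day 3 cells without an IFNB1 UMI and for the 16 shAPC day 3 cells with one, with bars for the Poisson 95% interval. All 10 genes are higher in the shAPC cells without an IFNB1 UMI than in shScr, and OASL, IFIH1 and DDX58 are higher again in the cells with one.

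In each list of adaptors, kinases and other genes around the sensors, at most 2 genes were at least 2-fold higher on day 3. Of the 5175 background genes 3.86% were at least 2-fold higher on day 3, so these counts are not read as few. The lists had no minimum level like that of the background, and whether they hold more such genes was not tested. For many genes of the lists the direction on day 3 depended on the scaling. The ratios given for these genes with TMM factors are log2(CPM + 1) ratios. Of 12 partners of the RIG-I-like receptors, 1 was at least 2-fold higher in shAPC on day 3, and 9 were higher and 3 lower, or 7 and 5 with TMM factors. That 1 was DDX60, an interferon-stimulated helicase, at 3.24 CPM in shScr and 19.4 in shAPC, with 2.95 and 2.43 on day 7. The adaptor MAVS was at 40.5 and 50.4 CPM on day 3, a log2 ratio of 0.32 (0.22 to 0.41), and of -0.06 on the log2(CPM + 1) scale with TMM factors. Among 6 measured partners of TLR3, UNC93B1, which carries TLR3 to the endosome, was 2-fold higher (5.23 and 11.6 CPM), though at 0.68 with TMM factors, while TICAM1 had a log2 ratio of 0.64. TLR7, TLR8 and TLR9 had at most 2 UMIs in the 4 libraries.

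Of 9 downstream kinases and factors, 9 were higher in shAPC on day 3 with total UMIs and 6 with TMM factors, of which IRF7 and IRF1 by at least 2-fold under both. IRF1 was at 9.85 CPM in shScr and 56.4 in shAPC on day 3, and at 16.0 and 9.81 on day 7. IRF7, which amplifies interferon production, was at 11.1 and 43.5 CPM on day 3 and at 8.93 and 6.15 on day 7. IRF3 and TBK1 had day 3 log2 ratios of 0.36 and 0.32, and of -0.02 and -0.05 on the log2(CPM + 1) scale with TMM factors.

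In the eIF2 branch behind PKR 1 of 9 genes was at least 2-fold higher on day 3, PPP1R15A (GADD34), which recruits a phosphatase to eIF2, at 44.9 and 133 CPM. With TMM factors PPP1R15A had 1.17, and 3 genes of the branch were higher and 6 lower. Among the other eIF2 kinases EIF2AK4 (GCN2) was lower in shAPC on both days, with log2 ratios of -0.67 and -0.66. SUPV3L1, a mitochondrial RNA helicase, was the 1 of 10 other proteins that handle double-stranded RNA to pass 2-fold, at 5.25 and 21.8 CPM on day 3 (1.52 with TMM factors) and 9.77 and 6.22 on day 7.

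Hairpin RNA is matured by DROSHA, DGCR8, XPO5 and DICER1 before it is loaded on AGO proteins. Of these 9 genes, with TARBP2 included, only DICER1 passed 2-fold on day 3, and the median was 0.16. DICER1 was at 15.0 CPM in shScr and 33.4 in shAPC on day 3 and at 16.1 and 32.3 on day 7, so it was higher on both days, with log2 ratios of 1.15 (1.01 to 1.30) and 1.01 (0.85 to 1.17). With TMM factors its log2(CPM + 1) ratios were 0.74 and 0.95, and 7 of the 9 genes were lower on day 3. Of the sensors of DNA, IFI16 was at 54.4 and 124 CPM on day 3 (0.80 with TMM factors), whereas TMEM173 (STING) was lower in shAPC on both days, with log2 ratios of -0.64 and -1.02. Other interferons were nearly absent: IFNE had 38 to 65 UMIs per library, IFNL1 at most 1, and IFNA1, IFNL2, IFNL3, IFNK and IFNG none. The interferon receptor genes IFNAR1 and IFNAR2 had day 3 log2 ratios of -0.01 and 0.03. On day 7 none of the genes in these pathway lists was at least 2-fold higher or lower on the log2(CPM + 1) scale with total UMIs. With TMM or DESeq2 factors 1 of them, TMEM173, was at least 2-fold lower.

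The genes whose pattern over the 4 libraries was nearest to the mean pattern of the 10 members were IFI35, EPSTI1, IFI44, PLSCR1, XAF1 and IRF7. Likeness was measured as the distance between log2(CPM + 1) values centred on each gene's own mean, over 5292 genes and only 4 libraries. IFI35, the nearest at a distance of 0.138, was at 21.7 CPM in shScr and 79.2 in shAPC on day 3, and at 22.6 and 15.5 CPM on day 7. The distances of the members themselves ran from 0.197 for DHX58 to 1.67 for OASL.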

How the data were processed

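The authors aligned the reads to GRCh38 with STAR within Cell Ranger and deposited, for each of the 4 libraries, a matrix of raw counts (UMIs per gene and cell barcode). Per the file headers, Cell Ranger 3.0.2 wrote the shScr matrices and 3.0.0 the shAPC matrices. The annotation release is not given in the sources used here. The labels name a retrovirus and the methods a lentivirus. The 10x 3' kit is v2 in the labels and in the study's supplement, but V3 in the methods. The study's ComBat correction, imputation and clustering were not applied.

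UMIs of the kept cells were summed per library and scaled to CPM by their total. Fold changes of list medians and of all genes are on the log2(CPM + 1) scale, whereas ratios of single genes are of CPM itself. The background is the genes that reach 20 CPM in either compared library. CPM have exact Poisson intervals, ratios exact conditional binomial and shares Clopper-Pearson intervals, all at 95%. Levels of different genes were not compared, since the 3' counts carry no length correction. No doublet caller was run, so cells of high UMI counts, such as those with IFNB1 UMIs, may include doublets. Genes were matched by symbol, and the positions are those of GENCODE for GRCh38. Strand handling in counting was not stated, and the antisense neighbour GPATCH11 of EIF2AK2 had 197 to 334 UMIs per library. The self-test drew Poisson counts and recovered the folds set in genes of at least 20 CPM. It did not cover folds of genes below that level or UMIs held by few cells.

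The 10 members and the 14 other gene lists were chosen with earlier results of these data known. The results of 2 of these lists are not reported here. Named besides the members are APC, the interferon genes, the 6 nearest patterns, genes of the lists with at least 50 UMIs and a 2-fold CPM ratio on either day, and some partners, kinases and receptors whose values were seen first. Alternatives were TMM (edgeR 4.0.16) and DESeq2 1.42.0 size factors (R 4.3.3), other totals, cell filters, weights, thinning, minimum levels and pseudocounts. Python 3 with scipy and pandas served for the rest. The 3 further alternatives, which leave out shared barcodes or cells with an IFNB1 or an ATF3 UMI, were chosen after seeing the data.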

Additional observations from a re-analysis of the deposited data

Results flagged for a closer look

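For 8 of the 10 genes the shAPC to shScr ratio was above 1 on day 3 and below 1 on day 7. The day 7 minus day 3 difference of the log2 ratios was -4.47 for OASL, -3.73 for OAS1, -3.25 for OAS2, -3.19 for IFIH1, -2.79 for DHX58, -2.69 for OAS3, -2.53 for DDX58 and -0.90 for EIF2AK2, whose day 7 interval includes 0. The median log2(CPM + 1) ratio of all genes also changed sign, from 0.28 on day 3 to -0.10 on day 7. How many of all genes changed sign was not counted. With 1 library per hairpin and day, the difference between the days was not tested.

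The barcodes removed for 5% or more of mitochondrial UMIs, which the comparisons leave out, showed the day 3 difference as well. In them the 10 genes summed to 361 CPM (345 to 377) in 245 shAPC barcodes of day 3 and to 170 CPM (158 to 182) in 346 shScr barcodes. On day 7 the sums were 164 CPM in shAPC and 175 CPM in shScr.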

How the results depend on the processing

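The 7 genes at least 2-fold higher in shAPC on day 3 numbered 6 (without DHX58) or 7 under each planned or added alternative, except with a minimum of 100 CPM, which only 1 member (ADAR) passed and which left 0. The same minimum left 0 of the 7 lower on day 7 against day 3 in shAPC. The day 3 median of 1.90 was 1.56 with TMM, 1.57 with DESeq2 size factors, 1.40 with cells thinned to 2000 UMIs and 1.38 without cells with an ATF3 UMI. On day 7, 4 members instead of 0 were at least 2-fold lower by the mean over cells of CPM, 2 with thinned cells and 1 with a pseudocount of 0.1 CPM. The mean over cells also made 1 member 2-fold higher on day 7 in shScr and turned the day 7 log2 ratio of OAS3 from -0.61 to 0.088. The cause was not tested. Among the 220 alternative values of single genes, 168 stayed within the interval of the value reported, 51 moved past it and 1 reversed.

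Without thinning, the share of cells with any member was 12.5 percentage points higher in shAPC on day 3, against 20.5 at 2000 UMIs, and 21.4 points higher on day 7, against 2.48 lower. Shallow shScr day 7 cells limit what a share without thinning can show. The log2 ratio of the members in cells with an IFNB1 UMI was 1.55 without thinning and 3.67 at 10000 UMIs. The latter came from 3 cells, in which OASL gave 82 of the 156 member UMIs. Leaving out barcodes common to libraries moved none of the 20 single-gene ratios out of its interval. No paired analysis was possible because each group holds 1 library, and no library could be left out in turn for the same reason.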
